A study of Arabidopsis thaliana with 24 samples.

Results

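The comparison described here sets the unstressed seedlings of uap1-2 against the unstressed seedlings of uap1-1, the 2 mutant lines of UAP1 in this Arabidopsis thaliana series. It uses 8 of the 24 libraries, chosen by genotype and treatment label alone: 4 of uap1-1 control and 4 of uap1-2 control. All 21428 of the 32833 listed genes that passed the filter on low counts were tested. Both lines are homozygous for a T-DNA insertion in the Col-0 background, so neither group here is wild type, and each line is a single insertion allele. The plants were whole seedlings on MS medium, described in the design text as 12 days old at harvest and in the extraction protocol as 10 days old. Wild-type (WT) Col-0 control seedlings, 4 libraries, are quoted only to show on which side of the lines the WT level lay. The seedlings of each line that spent 24 h at 4 °C, again 4 libraries each, are the same line contrast in other plants. Poly(A) RNA was sequenced, and the count of reads per gene is the measurement.

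The series title describes UAP1 as a splicing factor. Splicing factors help the spliceosome to recognise introns and remove them from new transcripts, and SR proteins are RNA-binding helpers that steer it to splice sites. A pair of independent insertion alleles is a usual control in plant genetics, since a feature found in one line and not in the other may belong to that line's insertion or seed stock and not to the shared gene. Gene counts do not measure splicing itself. The level of the mutated gene was not analysed here, as neither the gene symbols of the table nor those of the annotation include UAP1.

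Library totals ran from 19376003 to 21406990 counts in uap1-1 and from 19545075 to 24917449 in uap1-2. The design text describes the 4 replicates of each genotype and condition as biologically independent. A library of each line stood apart from the rest of its line. In uap1-1 it was replicate 2, with a TMM scaling factor of 0.986 against 1.21 to 1.24 in the other 3 libraries and a first principal component score of 74.7. In uap1-2 it was replicate 3, with a factor of 0.989 against 1.13 to 1.17 and a score of 42.7. The summed level of the light-harvesting and carbon fixation genes was 108344 CPM in that uap1-1 library and 109958 CPM in that uap1-2 library (CPM is the read count scaled to a common library total, here after TMM scaling), and 62833 to 85739 CPM in the other 6. For results that moved with these libraries, values without one or both of them are given beside the main values where stated.

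With all libraries kept, those of different lines were about as far apart as those of the same line. The root-mean-square distance between log2 CPM profiles had a median of 0.588 within uap1-1, 0.56 within uap1-2 and 0.618 over the 16 pairs between the lines. The ranges overlapped, at 0.395 to 0.786, 0.505 to 0.816 and 0.454 to 0.974. The lowest distances within a line were those among uap1-1 replicates 1, 3 and 4, at 0.395 to 0.456. Distances to WT were of the same order, with medians of 0.658 for uap1-1 and 0.668 for uap1-2.

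**Figure D1:**
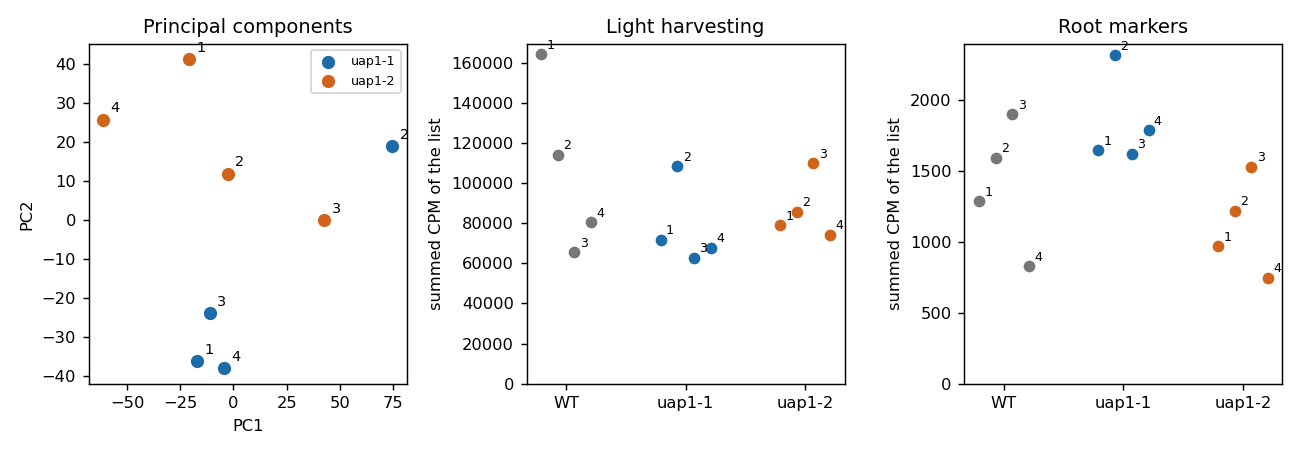
Left, scores of the 8 libraries on the first 2 principal components of log2 CPM, which held 40.3% and 20.6% of the variance; middle and right, summed CPM of the light-harvesting and carbon fixation list and of the root marker list in each unstressed library, with replicate numbers beside the points. uap1-1 replicate 2 and uap1-2 replicate 3 lie to the right on the first component and are the highest of their line for light harvesting, and every uap1-1 library lies above every uap1-2 library for root markers. On the second component the uap1-1 libraries other than replicate 2 lie below every uap1-2 library.

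Of all tested genes, 2 were called between the lines, 0.00933% of 21428, by edgeR's quasi-likelihood test at an adjusted p under 0.05. HAI1, a phosphatase that dampens abscisic acid (ABA) signalling, was higher in uap1-2, and UGT78D4, a glycosyltransferase gene, was lower. Without adjustment, 1354 genes (6.32%) had a p under 0.05, of which 421 were higher (1.96%) and 933 lower (4.35%) in uap1-2. In 1073 genes (5.01%) the 4 values of one line did not overlap the 4 of the other, with 423 higher (1.97%) and 650 lower (3.03%) in uap1-2. Scaling by library totals changed that split to 202 higher and 982 lower. DESeq2, run on the same genes, called 23, of which 2 were higher and 21 lower.

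Sizes were small for most genes. The median log2 difference between the lines was 0.02 and the median size regardless of sign was 0.16. A fitted difference of at least 2-fold was found for 776 genes (3.62%), 683 of them lower and 93 higher in uap1-2. For 74.3% of genes the 95% interval of the difference lay within 2-fold in either direction. Among the 12627 genes with a mean of at least 10 CPM this share was 93.7%, and 63.1% of them had an interval within 1.5-fold. For the remaining genes a difference of 2-fold was not excluded by the interval at this depth and number of libraries.

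**Figure D2:**
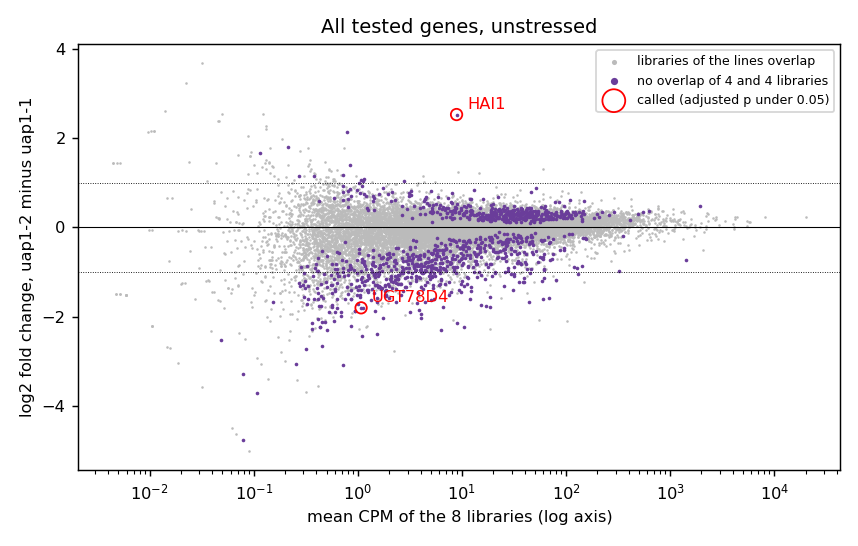
Log2 fold change of uap1-2 minus uap1-1 for each tested gene against its mean CPM over the 8 unstressed mutant libraries (log axis); dotted lines mark 2-fold, purple points are genes whose libraries do not overlap between the lines, and red circles are the called genes. The 13 tested genes without a count in these libraries are not drawn; purple points extend further down than up, with HAI1 alone at the top among genes above 1 CPM.

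HAI1 (AT5G59220, named SAG113 in the deposited table; chromosome 5, 23894404 to 23896939, minus strand, TAIR10) encodes a clade A protein phosphatase 2C, a class of enzymes that holds ABA signalling off and is itself induced by ABA. Its levels in uap1-1 replicates 1 to 4 were 3.09, 1.67, 2.42 and 3.25 CPM. In uap1-2 they were 18.17, 10.80, 16.15 and 15.44 CPM. The 2 sets did not overlap: the lowest uap1-2 library was more than 3-fold above the highest uap1-1 library. The log2 difference was 2.53 (SE 0.42, 95% interval 1.66 to 3.40), with adjusted p = 0.0441 by edgeR.

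WT seedlings had 36.27, 17.38, 19.38 and 33.00 CPM of HAI1, and uap1-1 lay below all of these libraries. In uap1-2, replicates 2, 3 and 4 also lay below the lowest WT library, by less, and replicate 1 lay just above it. Against the same WT libraries the log2 difference was -3.34 for uap1-1 (adjusted p = 0.00165 by edgeR) and -0.81 for uap1-2 (adjusted p = 0.865 by edgeR). HAI1 was the 1 gene of the 21428 (0.00467%) called between uap1-1 and WT, and none was called between uap1-2 and WT by edgeR, where 1152 genes (5.38%) had an unadjusted p under 0.05, beside 9.15% for uap1-1 against WT. The difference between the lines kept its direction and a log2 size of 2.34 to 2.66 in all 17 alternative fits. Its call did not hold as widely: adjusted p by edgeR was above 0.05 with scaling by library totals (0.0615) and when any uap1-1 library, or uap1-2 replicate 1, 3 or 4, was left out, reaching 0.41 without uap1-1 replicate 2 and 0.425 without both libraries that stood apart.

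The other clade A phosphatases, looked up after the HAI1 values were seen, were not called. Of the 9 genes of the family 8 were tested, and HAI1 was the 1 whose libraries did not overlap. HAI2 (AT1G07430), a close relative that is also ABA-induced, had 16.7, 2.43, 9.28 and 12.9 CPM in uap1-1 and 10, 6.29, 8.82 and 15.9 CPM in uap1-2. ABI1 (AT4G26080), the founding member, differed by 0.07 (SE 0.24) and PP2CA (AT3G11410) by 0.13 (SE 0.28) on the log2 scale. In the wider ABA and dehydration list 1 of 21 tested members was called, HAI1 itself, and the list median was -0.08 beside 0.02 for all genes. Without uap1-2 replicate 3 the list median was -0.25 with 17 of 21 negative. Without both libraries that stood apart it was -0.25 with 20 of 21 negative. In that fit 5 were lower and 1 higher without overlap, beside 10.4% and 12.5% of all genes. CYP707A1 (AT4G19230), which breaks ABA down, had 9.54 to 14.8 CPM in uap1-1 and 5.67 to 8.95 CPM in uap1-2, without overlap, and was not called (adjusted p = 0.726 by edgeR).

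UGT78D4 (AT5G17040; chromosome 5, 5605201 to 5607128, minus strand, TAIR10) belongs to a small family of UDP-glycosyltransferases whose better known members attach sugars to flavonols. Its level was 2.42, 1.48, 1.51 and 1.29 CPM in uap1-1, from 31 to 57 reads a library. In uap1-2 it was 0.58, 0.462, 0.416 and 0.436 CPM, from 10 to 15 reads a library. All 4 uap1-1 libraries lay above the WT libraries (0.776, 0.792, 0.852 and 0.621 CPM) and all 4 uap1-2 libraries lay below them. The log2 difference of uap1-2 from uap1-1 was -1.81 (SE 0.20, 95% interval -2.22 to -1.39), with adjusted p = 0.000157 by edgeR. Against WT the values were 1.13 for uap1-1 (adjusted p = 0.0675 by edgeR) and -0.67 for uap1-2 (adjusted p = 0.865 by edgeR).

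The call on UGT78D4 held in 15 of the 17 alternative fits, including each fit without 1 library. It was lost when the spread was estimated from the 8 unstressed mutant libraries alone (adjusted p = 0.257 by edgeR) or from the 12 unstressed libraries (adjusted p = 0.512 by edgeR), with log2 differences of -1.82 in both. In the cold the gene stood at 31.3 to 48.8 CPM in both lines, so the 24-library fit takes its spread for this gene partly from libraries with far more reads. Its family members were not called: UGT78D2 (AT5G17050), the next gene on the chromosome and a flavonol and anthocyanin glucosyltransferase, differed by -0.16 (SE 0.15), UGT78D1 (AT1G30530), a flavonol rhamnosyltransferase, by 0.06 (SE 0.16), and UGT78D3 (AT5G17030), the neighbour on the other side, had at most 0.208 CPM in any of the 8 libraries. Neither UGT78D4 nor HAI1 overlaps another listed gene.

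**Figure D3:**
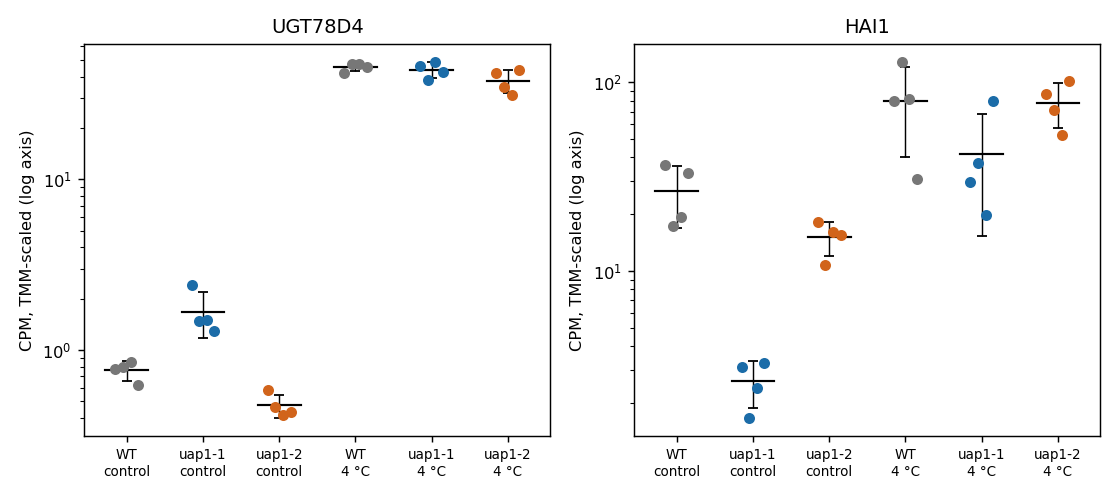
CPM (log axis) of UGT78D4 and HAI1 in each of the 24 libraries by genotype and condition; points are libraries, bars the mean and whiskers the SD of 4. Unstressed, uap1-1 has more UGT78D4 and less HAI1 than uap1-2 without overlap, and in the cold the lines overlap for both genes.

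Splicing genes came next, since UAP1 is described as a splicing factor. No SR protein or spliceosome gene was called between the lines, and their levels lay close together. Of 20 SR protein genes 19 had a higher fitted level in uap1-2, with a median log2 difference of 0.18, and 2 did not overlap between the lines, both higher, beside 1.97% of all genes. RS41 (AT5G52040), an arginine-serine-rich SR protein, had 91.5, 73.3, 82.9 and 79.1 CPM in uap1-1 and 96.6, 91.9, 98 and 107 CPM in uap1-2. Its libraries did not overlap, and the log2 difference was 0.27 (SE 0.09, adjusted p = 0.661 by edgeR). SCL30 (AT3G55460) also did not overlap, at 54.4 to 59.9 CPM in uap1-1 and 65.1 to 72.1 CPM in uap1-2, with a log2 difference of 0.27 (SE 0.13). At the other end SC35 (AT5G64200), an SR protein that acts at splice sites, differed by -0.02 (95% interval -0.26 to 0.23), which leaves room for less than a 1.5-fold difference.

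Of 30 spliceosome and associated genes 27 were positive, with a median of 0.13, and 3 did not overlap, all higher in uap1-2, beside 1.97% of all genes. These were PRL1 (AT4G15900), a member of the complex that activates the spliceosome, at 60.2 to 70.2 CPM in uap1-1 and 70.6 to 85.6 CPM in uap1-2, PTB2 (AT5G53180), a splicing repressor, at 25.8 to 28.1 and 29.5 to 33.1 CPM, and CBP20 (AT5G44200), a subunit of the nuclear cap-binding complex, at 39.2 to 43.1 and 43.2 to 58.4 CPM. Their log2 differences were 0.25 (SE 0.10), 0.21 (SE 0.10) and 0.26 (SE 0.13). The core scaffold PRP8A (AT1G80070) differed by 0.07 (SE 0.15) and the helicase BRR2A (AT1G20960) by 0.06 (SE 0.13). The 197 tested genes of the annotated KEGG spliceosome pathway had a median of 0.11, with 150 positive, 10 not overlapping and higher, and 1 not overlapping and lower, beside 1.97% and 3.03% of all genes. Scaling by library totals moved the SR median to 0.11 with 16 of 20 positive and no member without overlap, and the spliceosome median to 0.07 with 19 of 30 positive, while the median of all genes moved to -0.05. Without uap1-1 replicate 2 the spliceosome median was 0.08 with 22 of 30 positive and 7 higher without overlap, beside 8.31% of all genes. The SR median was then 0.16 with 18 of 20 positive.

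Leaving aside families picked on their values, genes of roots and of low oxygen had the medians furthest from 0 of the 25 gene lists. Root markers are genes used to recognise root tissue, and 14 of 16 had a lower fitted level in uap1-2, with a median log2 difference of -0.91 beside 0.02 for all genes. None was called, and 5 did not overlap, all lower, beside 3.03% of all genes. PYK10 (AT3G09260), an abundant root beta-glucosidase, had 1555, 2240, 1552 and 1716 CPM in uap1-1 and 912, 1161, 1464 and 692 CPM in uap1-2. The lines did not overlap, and the log2 difference was -0.74 (SE 0.27, adjusted p = 0.678 by edgeR). The root hair wall genes PRP3 (AT3G62680) and LRX1 (AT1G12040) had the lowest values, -1.67 (SE 0.67) and -1.90 (SE 0.82). CASP2 (AT3G11550), which builds the Casparian strip of the endodermis, differed by -1.13 (SE 0.44), and the root meristem factor PLT1 (AT3G20840) by -0.94 (SE 0.37).

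The exceptions were SHR (AT4G37650) and SCR (AT3G54220), transcription factors of the root ground tissue that are also expressed in shoots, at 0.08 (SE 0.20) and 0.02 (SE 0.14). The summed level of the 16 markers was 1621 to 2314 CPM in uap1-1 and 748 to 1529 CPM in uap1-2, with WT at 828 to 1898 CPM across both. No marker was at 0 in any of the 8 libraries. In bulk seedlings fewer root cells and less RNA per root cell cannot be told apart. Without the libraries that stood apart the median was -1.39 and 11 of the 16 did not overlap, beside 10.4% of all genes lower without overlap in those 6 libraries.

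Hypoxia genes respond to low oxygen through a shared set of transcription factors, and all 11 had a lower fitted level in uap1-2. The median was -0.82, none was called, and 6 did not overlap, all lower, beside 3.03% of all genes. ADH1 (AT1G77120), alcohol dehydrogenase of ethanol fermentation, had 72.1, 125, 83.9 and 58.4 CPM in uap1-1 and 41.7, 56.4, 33.5 and 23 CPM in uap1-2. Each uap1-1 library lay above each uap1-2 library, by a small margin between the lowest and the highest, and the log2 difference was -1.13 (SE 0.29, 95% interval -1.73 to -0.53, adjusted p = 0.467 by edgeR). PDC1 (AT4G33070), the pyruvate decarboxylase that feeds it, differed by -1.22 (SE 0.34), and the sucrose synthases SUS4 (AT3G43190) and SUS1 (AT5G20830), which break down sucrose when oxygen is short, by -1.05 (SE 0.32) and -0.68 (SE 0.21). The list sum was 281 to 508 CPM in uap1-1 and 119 to 247 CPM in uap1-2, and 177 to 422 CPM in WT.

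All 11 hypoxia members stayed negative under each of the 3 scalings and without either or both libraries that stood apart, with list medians of -0.88 to -0.68. The summed root markers moved in the same direction between the lines, and their part in the hypoxia values was not tested. Medians against the shared WT libraries were 0.55 (uap1-1) and -0.37 (uap1-2) for hypoxia and 0.31 and -0.39 for root markers, so WT lay between the lines.

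Further families were picked after these values were seen. Of 56 tested class III peroxidases, secreted enzymes that act on cell walls and reactive oxygen, 46 were negative, with a median of -0.78, 10 without overlap and lower, and 1 (PER43) without overlap and higher, beside 3.03% and 1.97% of all genes. PER10 (AT1G49570) had 9.06 to 21.4 CPM in uap1-1 and 1.31 to 5.04 CPM in uap1-2. Jacalin-related lectins, of which several aggregate with PYK10, were negative for 19 of 21 members, with a median of -0.43. Lower without overlap were 7 of them, beside 3.03% of all genes. The 4 tested genes of the thalianol cluster, which make a root triterpene from a block of neighbouring genes on chromosome 5, had a median of -1.60. Its oxidase gene CYP708A2 (AT5G48000) had 22.3, 29.1, 15.4 and 37.2 CPM in uap1-1 and 3.4, 8.49, 15.3 and 3.58 CPM in uap1-2, where replicate 3 reached nearly to the lowest uap1-1 library. Beta-glucosidases, the family of PYK10 and BGLU22, had a median of -0.06 over 30 tested members, near that of all genes, with 17 negative. Without overlap 4 were lower, beside 3.03% of all genes. The summed level of the family was 3105 to 3976 CPM in uap1-1 and 2415 to 3052 CPM in uap1-2. None of these families held a called gene by edgeR, and as they were chosen for their values they are a description.

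**Figure D4:**
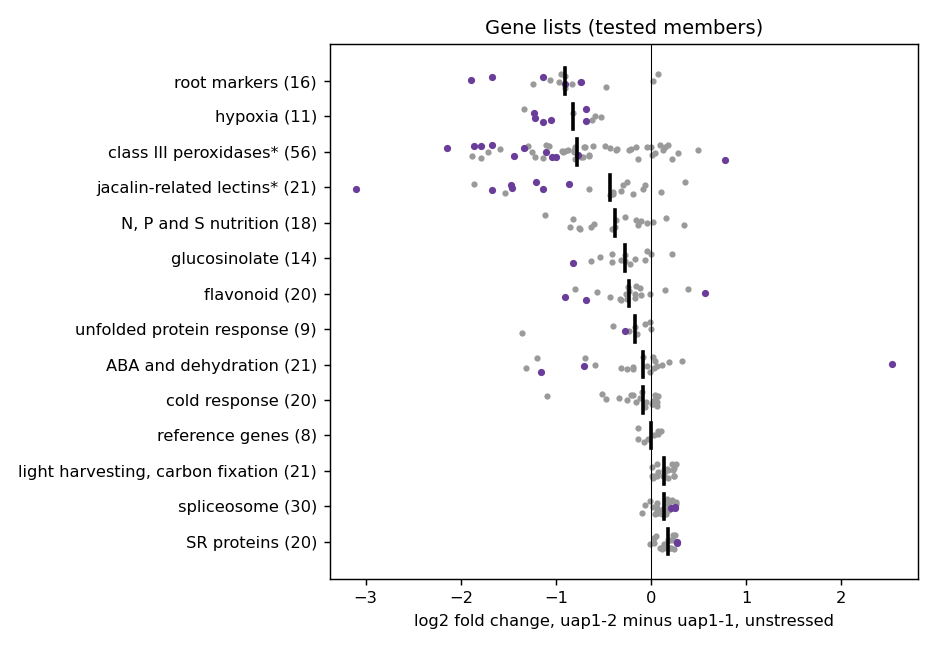
Log2 fold change of uap1-2 minus uap1-1 for each tested member of 14 gene lists, with the number of members in brackets; black bars are medians, purple points members whose libraries do not overlap between the lines, and * marks families picked after values were seen. Root markers and hypoxia genes lie to the left with medians of -0.91 and -0.82, splicing lists lie within 0.3 of 0, and HAI1 stands alone at the right of the ABA list.

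Some members of these families were among the genes that DESeq2 called and edgeR did not. The 21 that DESeq2 placed lower in uap1-2 included the jacalin-related lectins JAL46 (AT5G49850, log2 -1.48, adjusted p = 0.0296 by DESeq2) and JAL20 (AT2G25980, -1.14, adjusted p = 0.0438 by DESeq2), peroxidase PER38 (AT4G08780, -1.87, adjusted p = 0.0391 by DESeq2) and the beta-glucosidase BGLU22 (AT1G66280, -1.68, adjusted p = 0.0163 by DESeq2). BGLU22 had 69.9, 78.5, 33.9 and 87.7 CPM in uap1-1 and 19, 26.9, 25.9 and 13 CPM in uap1-2, without overlap. Others were ACO1 (AT2G19590), an enzyme of ethylene synthesis, at -0.996 (adjusted p = 0.0389 by DESeq2), and ELIP2 (AT4G14690), an early light-induced chloroplast protein, at -1.10 (adjusted p = 0.0391 by DESeq2).

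The smallest DESeq2 value after UGT78D4 and HAI1 was that of AT4G01450, a transporter-like protein of the WAT1 group, at 26.7, 26.8, 29.2 and 26.8 CPM in uap1-1 and 17.05, 22.28, 19.35 and 17.62 CPM in uap1-2. Its log2 difference was -0.52 (adjusted p = 0.0026 by DESeq2 and 0.368 by edgeR). Beside HAI1 the 1 other gene DESeq2 placed higher in uap1-2 was AT5G03615, which the table does not describe, at 0.226 to 0.333 CPM in uap1-1 and 0.916 to 2.08 CPM in uap1-2.

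Most other lists held no called gene and had medians near 0 with all libraries kept. Jasmonate genes had a median of -0.46 with 11 of 14 negative and 0 without overlap. Without uap1-1 replicate 2 it was -0.17 with 8 of 14 negative. Salicylic acid and immunity genes had a median of -0.12 with 13 of 20 negative. It was -0.50 with 19 of 20 negative without uap1-2 replicate 3, and -0.25 with 15 of 20 negative without both libraries that stood apart. Light-harvesting and carbon fixation genes were positive for 21 of 21 members, with a median of 0.14 and no member without overlap. The libraries that stood apart moved these values. Without uap1-2 replicate 3 the median was 0.01 with 12 of 21 positive. Without uap1-1 replicate 2 it was 0.31 and without both 0.18, each with 21 of 21 positive and 5 higher without overlap, beside 8.31% and 12.5% of all genes in those libraries. Scaling by library totals gave 15 of 21 positive. RBCS1A (AT1G67090), a Rubisco small subunit gene, differed by 0.24 (SE 0.22) and LHCB1.4 (AT2G34430), a light-harvesting protein gene, by 0.26 (SE 0.30). Leaving out uap1-2 replicate 3 moved heat shock genes from -0.22 with 6 of 10 negative to -0.66 with 9 of 10. Touch and wounding genes moved from 0.04 with 4 of 8 negative to -0.46 with 8 of 8. Cell cycle genes moved from 0.09 with 9 of 13 positive to 0.31 with 13 of 13. These counts by sign were the same without both libraries that stood apart.

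Lists of secondary metabolism and of the unfolded protein response had negative medians. Flavonoid genes were negative for 17 of 20 members, with a median of -0.24. Without overlap were 2 lower and 1 higher, beside 3.03% and 1.97% of all genes. The lower ones were FLS1 (AT5G08640), flavonol synthase, at 23.7 to 32.4 CPM in uap1-1 and 11.3 to 20.4 CPM in uap1-2, and the flavonol regulator MYB12 (AT2G47460), at 6.38 to 9.96 and 2.7 to 5.74 CPM. The higher one was MYBL2 (AT1G71030), a repressor of anthocyanin synthesis, at 47.6 to 72.1 CPM in uap1-1 and 73.6 to 130.6 CPM in uap1-2. Scaling by library totals gave 5 flavonoid genes lower and 0 higher without overlap, beside 4.58% and 0.943% of all genes. Glucosinolate genes were negative for 13 of 14, with a median of -0.27, and CYP79F2 (AT1G16400), which starts the aliphatic branch, differed by -0.82 (SE 0.30) without overlap. The unfolded protein response was negative for 9 of 9 with a median of -0.16 and 1 lower without overlap, beside 3.03% of all genes. Without both libraries that stood apart it was negative for 6 of 9 with a median of -0.18. In that fit 4 were lower without overlap, beside 10.4% of all genes. The KEGG phenylpropanoid pathway, which holds many peroxidases, had a median of -0.35 over 149 genes, with 22 lower and 1 higher without overlap, beside 3.03% and 1.97% of all genes.

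Cold response genes had a median of -0.08 with 12 of 20 negative and none without overlap. These values moved with the libraries that stood apart. Without uap1-2 replicate 3 the median was -0.26 with 19 of 20 negative. Without both it was again -0.26 with 19 of 20 negative, and 6 were lower without overlap, beside 10.4% of all genes. ELIP2 had the lowest value of this list, and CBF3 (AT4G25480), a transcription factor that starts the cold programme, differed by -0.21 (SE 0.20). Circadian clock genes had a median of 0.03, and reference genes used for normalisation a median of 0.00 with 4 of 8 negative. The reference genes TIP41 (AT4G34270), PP2AA3 (AT1G13320) and SAND (AT2G28390) differed by -0.13 (SE 0.13), 0.11 (SE 0.12) and -0.08 (SE 0.11). Over all 25 lists 1 of 360 tested members was called and 24 (6.67%) did not overlap, beside 5.01% of all genes. The level of seed markers was near 0, with sums of the tested members up to 0.29 CPM in uap1-1 and 0.27 CPM in uap1-2. Of these markers 3 of 12 passed the filter, with a median log2 difference of -0.55. No count was found for 5 in any of the 8 libraries.

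The libraries of the same lines at 4 °C are other plants and give the line difference a second time. No gene was called there by edgeR, and 2368 (11.1%) had an unadjusted p under 0.05, while DESeq2 called 3. Across all tested genes the line differences in both conditions had a Pearson r of 0.04 and the same sign in 50.5%, as a description across genes that are not independent. Of the 1073 genes without overlap unstressed and the 973 in the cold, 19 were shared in the same direction, 1.77% of the first and 1.95% of the second, and 29 in opposite directions. SUS1 was among the 19, with a log2 difference of -0.68 (SE 0.21) unstressed and -0.69 (SE 0.21) in the cold.

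Both called genes had smaller line differences in the cold. UGT78D4 differed by -0.21 (SE 0.15) there, and the difference between the conditions was 1.60 on the log2 scale (SE 0.25, adjusted p = 0.0392 by edgeR), the 1 call of that test among 21428 genes (0.00467%, with 7.58% at an unadjusted p under 0.05). The count for that test was 0 with RLE scaling in edgeR, with no filter on low counts, with a replicate block and without both libraries that stood apart. It was also 0 when uap1-1 replicate 1, 2 or 3, or uap1-2 replicate 2, 3 or 4, was left out alone. HAI1 had 29.7, 37.2, 19.9 and 79.3 CPM in uap1-1 and 86.4, 71.7, 52.8 and 102 CPM in uap1-2 at 4 °C, where uap1-1 replicate 4 overlapped uap1-2. Its log2 difference was 0.91 (SE 0.38, adjusted p = 0.442 by edgeR), and the difference between conditions was -1.62 (SE 0.56, adjusted p = 0.640 by edgeR).

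The root, hypoxia, SR protein and light-harvesting lists had medians closer to 0 in the cold, or of the other sign. Scaling by library totals moved the median of all genes in the cold from 0.02 to 0.18, so signs near 0 there follow the scaling. The root marker median was -0.15 in the cold with 9 of 16 negative, and 0.02 with library totals. Hypoxia genes had a median of -0.23 with 7 of 11 negative, and -0.06 with 6 of 11 negative with library totals. SR proteins had a median of -0.13 with 18 of 20 negative, and 0.03 with 8 of 20 negative with library totals. Light-harvesting and carbon fixation genes were negative for 21 of 21 under all 3 scalings, with medians of -0.62 to -0.39, against 0.14 unstressed. None of these differences between conditions was tested as a list.

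**Figure D5:**
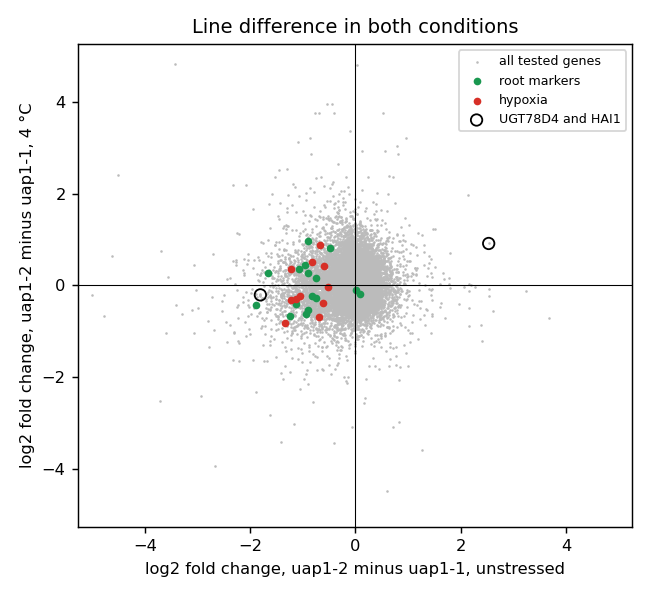
Log2 fold change of uap1-2 minus uap1-1 in unstressed seedlings (horizontal) against the same in seedlings at 4 °C (vertical) for all tested genes, with root markers, hypoxia genes and both called genes marked. Root markers and hypoxia genes spread to the left but lie on both sides of 0 vertically, and HAI1 is at 2.53 and 0.91.

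Genes without overlap made up 4.601% to 5.323% of the tested genes on each of the 5 nuclear chromosomes. Their share varied more between windows of 1 Mb. Both called genes lie on chromosome 5, in separate windows of 1 Mb, and no window held more than 1 called gene. In the window starting at 23 Mb, which holds HAI1, 20 of 249 tested genes (8.03%) did not overlap, and in the window starting at 5 Mb, which holds UGT78D4, 6 of 245 (2.45%). The window with most genes without overlap starts at 26 Mb on chromosome 5, with 24 of 256 (9.38%), beside 5.01% of all genes. That at the start of chromosome 4 held 21 of 219 (9.59%). The genes beside HAI1 were not called, with log2 differences of -0.09 (SE 0.26) for AT5G59210 and -0.65 (SE 0.34) for the ribosomal protein gene RPS8B (AT5G59240). Nor did any gene pass from absent to present between the lines: none had 3 counts or fewer summed over one line and at least 10 in each library of the other.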

How the data were processed

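The authors deposited one table that lists, per gene and library, the read count and the FPKM. The deposited counts are whole numbers and were used as they stand. The deposited FPKM values were not tested. They equal the count over exonic length and library total to within 0.005. Without giving roles or order, the submitters' processing notes list DESeq2 1.26.0, HTSeq 0.6.1, HISAT2 2.2.1, cutadapt 1.9.1, StringTie 1.3.3b, FastQC 0.10.1, bcl2fastq 2.20.0.422 and SAMtools 0.1.19, with TAIR10 as the build. No source used here gives whether reads were counted by strand: overlapping or antisense genes and close paralogs, such as the light-harvesting genes, are therefore uncertain. Of the listed loci, 32548 were found in the reference annotation, 99.95% with the same start and end.

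Genes were kept by edgeR's filterByExpr (minimum count 10, minimum total 15). TMM scaling was used, and a model of 6 group means over all 24 libraries was fitted by edgeR 4.0.16 (quasi-likelihood) in R 4.3.3. Adjustment was by Benjamini-Hochberg over all tested genes. The SE is the log2 difference over the square root of F, and fold changes carry a prior count of 0.125. Alternatives were library totals, RLE scaling, DESeq2 1.42.0, other filters, fewer libraries, a replicate block and each library left out. A fit without both libraries that stood apart was added after seeing the data. The fit was tested on counts simulated with its estimated spread, with 200 genes changed in unstressed uap1-2. It called 5 of 67 genes changed 1.5-fold (7.46%), 26 of 67 changed 2-fold (38.8%) and 57 of 66 changed 4-fold (86.4%). Of its 90 calls 2 were false.

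The members, the 25 gene lists (377 genes) and the tests were chosen with earlier results of these data known. Named genes are the called genes without overlap and with at least 1 CPM in one line, and up to 4 members of each list with the smallest adjusted p. Other genes named (among them HAI1's and UGT78D4's relatives and neighbours, SHR, SCR, SC35, PRP8A, BRR2A, MYBL2, the peroxidases, lectins and thalianol genes, BGLU22, ACO1, AT4G01450 and AT5G03615) were chosen after their values were seen. No list was tested as a set. Replicate libraries all differed by more than sampling noise, with chi-square values per degree of freedom of 9.09 to 74.3.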

Additional observations from a re-analysis of the deposited data

Results flagged for a closer look

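Of 259 sets of 4 values tested for a library far from the other 3 of its line (named genes, library measures and list sums), 23 were flagged, 8.88%, while chance flags about 1 in 20. In uap1-1, 11 of 12 flags fell on replicate 2 and in uap1-2, 6 of 11 on replicate 3, the libraries that stood apart.

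In uap1-1 replicate 2 the TMM factor was 0.986 beside 1.21 to 1.24. SEP3, a floral regulator, stood at 18 CPM beside 1.27 to 2.75, the floral regulator AP3 at 1.0002 CPM beside 0.264 to 0.297, and the floral marker sum at 21.2 CPM beside 3.62 to 4.197. GAPC1, a glycolysis gene, stood at 1042 CPM beside 521 to 532, the copper-zinc superoxide dismutase gene CSD2 at 25.1 CPM beside 16.5 to 17.7, and the cyclin gene CYCA2;3 at 10.1 CPM beside 15.6 to 16.7. List sums of that library were 1005 CPM for the clock (1279 to 1303 in the others), 1900 CPM for growth, auxin and gibberellin (1266 to 1327), 733 CPM for sugar, starch and starvation (528 to 532) and 4262 CPM for reference genes (2638 to 2830). The other flag in uap1-1 was 0.151 CPM of the seed oleosin OLEO1 in replicate 3, beside 0.

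In uap1-2 replicate 3 the ferritin gene FER1 stood at 387 CPM beside 106 to 136, WRKY40, a stress-induced transcription factor, at 10.6 CPM beside 3.02 to 3.52, GASA1, a gibberellin-regulated gene, at 128 CPM beside 41.5 to 55.2, LHCB1.4 at 3206 CPM beside 2109 to 2153, the endoplasmic reticulum chaperone BIP2 at 123 CPM beside 139 to 140, and the ABA and dehydration sum at 1486 CPM beside 1009 to 1054. Further flags in uap1-2 were HSP18.2 at 3.59 CPM, SCL30 at 65.1 CPM and SOC1 at 78.9 CPM in replicate 2, SR34A at 66.9 CPM in replicate 4 and PLT1 at 3.63 CPM in replicate 1.

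The line difference of UGT78D4 was flagged because it differed between the cold and unstressed seedlings, by 1.60 on the log2 scale.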

How the results depend on the processing

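The count of 2 called genes became 1 with library totals, with the 8 or the 12 unstressed libraries alone and without both libraries that stood apart, and 23 with DESeq2 (2 higher, 21 lower). The fits on 8 and on 12 libraries left 0 lower calls, and library totals and the fit without both libraries left 0 higher calls and 0 in the ABA list. The cold list had 1 lower call with DESeq2. Leaving out 1 library at a time gave 1 to 2 calls, 0 to 1 higher, 1 to 2 lower and 0 to 1 in the ABA list. The test between conditions gave 0 calls with RLE scaling, without a filter, with the block and without both libraries, 2 with DESeq2, and 0 to 1 with 1 library left out. In the cold DESeq2 called 3. Genes without overlap rose in number to 1362 to 3121 with 1 library left out and to 4936 without both. The highest counts with 1 left out were 3121 without uap1-1 replicate 2 and 2499 without uap1-2 replicate 3. Fewer libraries have to be kept apart in these fits, and how much of the rise this makes up was not tested. The replicate block gave 3 calls, 2 of them lower. Numbers shared between the lines did not pair the libraries: deviations of same-numbered libraries correlated at 0.15, 0.13, -0.30 and 0.26.

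Of 100 named genes, 9 changed sign under some alternative, none of them called. With 1 library left out, their log2 differences ran from -0.56 to 0.15 for HT1, -1.01 to 0.94 for SEP3, -0.25 to 0.18 for GAPC1, -0.055 to 0.50 for KNOLLE, -0.20 to 0.68 for HSFA2, -0.14 to 0.66 for FER1, -0.27 to 0.77 for WRKY40, -0.028 to 0.40 for CYCA2;3 and -0.095 to 1.46 for AP3. Without both libraries that stood apart, HSFA2 was -0.25, FER1 -0.075, WRKY40 -0.37, SEP3 0.71 and GAPC1 0.068. Where no value above shows it, the cause was not tested. Depth and 4 libraries a line limit genes of low level most: the interval of the difference lay within 2-fold for 74.3% of all tested genes and 93.7% of those with a mean of at least 10 CPM.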

Other observations

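Floral markers had a median log2 difference of 0.79 over 5 tested members, none called. AP1, a floral identity factor, had 0.551, 0.0476, 0.453 and 0.25 CPM in uap1-1 and 1.24, 1.49, 0.166 and 1.66 CPM in uap1-2, so the lines overlapped through uap1-2 replicate 3. ASN1, an asparagine synthetase induced by low sugar, had 33.6, 58.1, 22.8 and 22.3 CPM in uap1-1 and 36.2, 153, 132 and 20 CPM in uap1-2, where replicates 2 and 3 were high and replicates 1 and 4 were near uap1-1. Genes of nitrogen, phosphorus and sulfur nutrition were negative for 15 of 18 members with a median of -0.37, and for 10 of 18 with a median of -0.05 without uap1-1 replicate 2. APR1, a reductase of sulfate assimilation, differed by -0.60 (SE 0.18), at 85.7 to 171 CPM in uap1-1 and 68.5 to 99.6 CPM in uap1-2.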
